A study of Homo sapiens with 12 samples.

Results

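VIM-expressing cells of untreated SCC6 are the cells of the 2 SCC6 PBS samples that had at least 15000 unique molecular identifiers (UMIs, the tags that count single RNA molecules) in all and at least 2 UMIs of VIM. They numbered 1209, of 5088 SCC6 PBS cells at that depth, 5217 SCC6 PBS cells and 23914 cells in the series. Replicate 1 held 395 of them and replicate 2 held 814. They were compared with the 3056 cells of the same samples and depth in which no VIM UMI was counted (1889 and 1167), here called VIM-lacking cells. The 823 cells with 1 VIM UMI (368 and 455) were left between the classes.

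SCC6 is an established line of head and neck squamous cell carcinoma (HNSCC), a cancer of the epithelium that lines the mouth and throat. The study sequenced single cells of 3 such lines, SCC1, SCC6 and SCC25, each with 2 samples treated daily for 5 days with 100 nM cetuximab, an antibody against the epidermal growth factor receptor (EGFR), and 2 given phosphate-buffered saline (PBS) alone. The SCC6 cetuximab and SCC25 PBS samples are used below for comparison. The labels do not settle whether the duplicates of a group were separate cultures. The p-values here set the class difference within libraries against its variation from library to library, which may be technical. That variation was estimated mostly over all genes together, with 124.4 prior against 3 residual degrees of freedom. The p-values and standard errors (SE) therefore take little account of how far the 2 replicates disagree for a single gene.

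VIM encodes vimentin, the intermediate filament protein of fibroblasts and other mesenchymal cells. Epithelial cells build their filaments from keratins, and carcinoma cells can make vimentin beside keratins or in their place when they undergo an epithelial-mesenchymal transition (EMT). In this programme, driven by transcription factors of the SNAI, ZEB and TWIST families and by transforming growth factor-beta (TGF-beta), cells loosen their contacts, lay down matrix and gain motility, and many carcinoma cells pass through it only in part.

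The cells were chosen by their VIM UMI count, and values of VIM are a description. The share of cells with 2 or more VIM UMIs at the depth limit was 14.9% in replicate 1 (exact 95% binomial interval 13.6 to 16.3) and 33.4% in replicate 2 (31.5 to 35.3), and such intervals cover counting error only. After every cell was thinned to 15000 UMIs, the shares were 7.01% and 18.6%, against 0.658% and 1.04% in the 2 SCC1 PBS samples. The cells held 2422 and 8008 VIM UMIs, with a median of 3 and 4 UMIs per cell and a maximum of 159 and 312. VIM was unevenly spread among them: the tenth of these cells with most VIM held 44.7% and 50.4% of it, and 16 and 115 cells had 16 UMIs or more. Just inside the threshold lay 139 and 229 cells with 2 UMIs, and just outside it the 368 and 455 cells with 1 UMI, at median depths of 38834 and 38714 against 36816 and 39700 UMIs per cell.

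**Figure D1:**
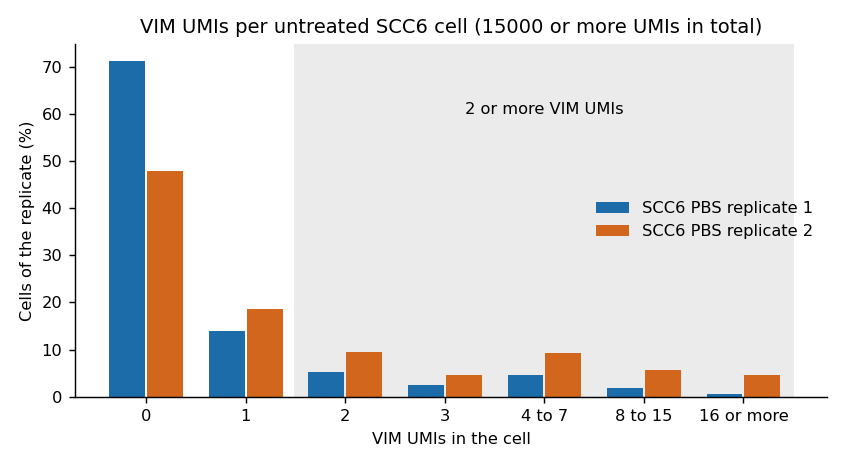
Share of SCC6 PBS cells with 15000 or more UMIs (y axis, percent) by the number of VIM UMIs in the cell (x axis), for replicates 1 and 2. Cells with 0 VIM UMIs made up 71.2% and 47.9%, and cells with 16 or more 0.603% and 4.72%.

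VIM-expressing cells were deeper than VIM-lacking cells, with median UMIs per cell of 39514 against 31419 in replicate 1 and 42068 against 37123 in replicate 2, and median numbers of genes of 5444 against 4880 and 5768 against 5387. A deeper cell reaches 2 UMIs of any gene more easily, and the comparison was therefore repeated with cells matched in depth (below). The median share of UMIs from mitochondrial genes was 3.14% against 3.58% in replicate 1 and 5.50% against 5.75% in replicate 2.

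These cells were epithelial by their markers. EPCAM, an adhesion molecule of epithelial cells, was detected in 378 of 395 and 802 of 814 of them, and KRT17 in 383 and 764. KRT5 and KRT14, the keratins of basal squamous cells, were nearly absent, with 25 and 63 UMIs of KRT5 and 21 and 9 of KRT14 in the VIM-expressing cells. The median share of UMIs from 6 keratins was 1.00% and 0.919% in VIM-expressing against 0.928% and 0.817% in VIM-lacking cells, and 0 cells of the former lay under 10% of the median of the latter. Fibroblast markers were close to 0: the 7 genes together stood at 0.173 and 1.17 CPM (UMI counts scaled to library size in the usual unit) in VIM-expressing and 0.179 and 0.216 in VIM-lacking cells, PDGFRA had 0 UMIs, and the 7 UMIs of DCN in replicate 2 came from 2 cells. Of the 7 leukocyte markers, summing to 26.7 and 12.4 CPM against 28.8 and 13.5, PTPRC and CD3E had 0 UMIs, which with 395 and 814 cells allows a share of cells with a UMI of up to 0.930% and 0.452% (exact 95% interval), and CD68 gave most of the sum. The 5 endothelial markers stood at 0.462 and 0 against 0.0596 and 0.0431 CPM, with KDR and TEK at 0 UMIs. By genes that mark SCC25, 0 VIM-expressing cells reached 10% of the SCC25 level, and by genes that mark SCC1, 1 did. VIM-expressing cells shared 13 and 24 cell barcodes with other libraries of the series.

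To ask which other genes differed between the classes, UMIs were summed per sample and class, and the classes were compared within samples by the quasi-likelihood F-test of edgeR with Benjamini-Hochberg adjustment (false discovery rate, FDR, threshold 0.05) over 16498 genes, VIM left out. Levels below are CPM after TMM scaling unless another scale is named. A summed level does not tell whether more cells made a transcript or each cell made more of it. VIM-expressing cells had 564 genes higher and 445 lower than VIM-lacking cells, which is 3.42% and 2.7% of the genes tested. Most differences were small: the median size among the 1009 genes was 0.40 on the log2 scale, and 170 reached 1 or more. The balance depended on level. Among called genes with 20 CPM or more in a class and the same direction in both samples, 177 were higher and 299 lower. Ribosomal protein and mitochondrial genes were left out of that count. The median over all genes tested was -0.015. Of the markers of other cell types, DCN and VWF passed the test on 7 UMIs each (in 2 and 4 VIM-expressing cells) but not with cells matched in depth, where DCN had an FDR of 0.178 and VWF was not tested, and none of the 3 leukocyte markers tested passed by edgeR (none had an unadjusted p under 0.05, and DESeq2 called none).

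Calls depended on the 2 libraries. Without replicate 1, 297 genes were higher and 96 lower, without replicate 2, 72 and 108, and with cells matched in depth 345 and 205. Matching kept 395 and 773 cells of each class, so that it also lowered the number of cells behind the sums, and calls of named genes that it ended are given with those genes. Without the sample as a block no gene passed by edgeR (263 had an unadjusted p under 0.05).

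**Figure D2:**
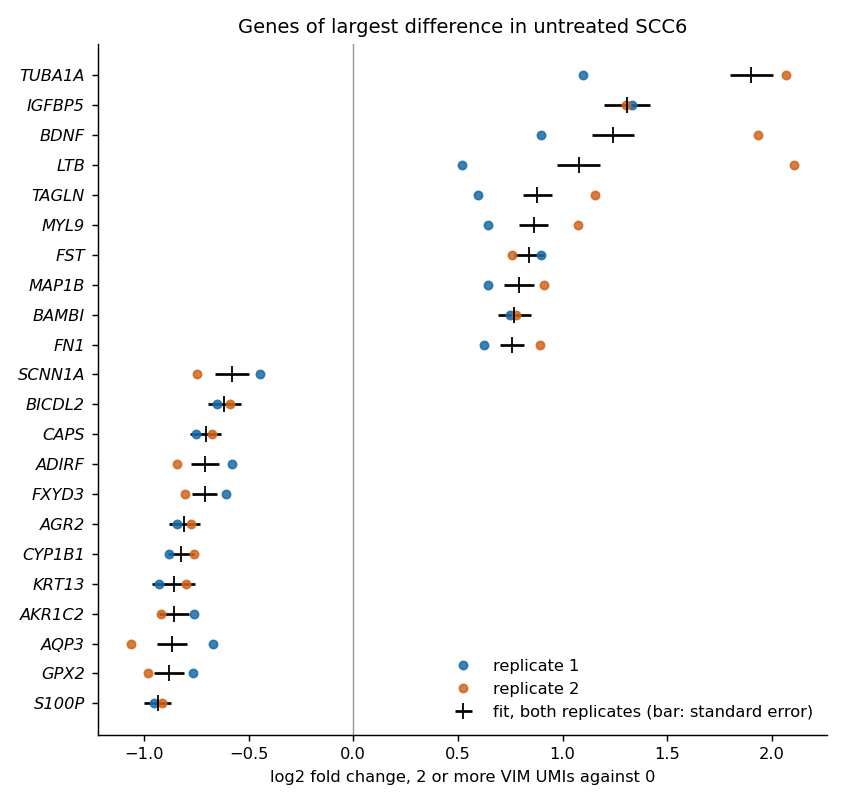
Log2 fold change (x axis) of VIM-expressing against VIM-lacking SCC6 PBS cells for 10 of the 12 largest rises and the 12 largest falls among genes with FDR of 0.05 or less, 20 CPM or more in 1 class and the same direction in both samples. Points show each replicate and bars the fitted value ± SE. TUBA1A lies highest at 1.90 and S100P lowest at -0.93, and both replicates lie on the same side of 0 for all 22 genes drawn, as the rule for naming them required.

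Matrix genes and other genes of mesenchymal cells were the group with most rises. Of 28 listed genes without VIM, 27 were tested, of which 15 rose and 1 fell (12 and 1 by DESeq2). The median log2 fold change of the 27 was 0.49 (0.50 over the 18 with 5 CPM or more in a class) beside -0.015 over all genes. FN1, which encodes the matrix protein fibronectin, stood at 398.6 CPM in VIM-lacking and 614.5 in VIM-expressing cells of replicate 1, and at 348.3 and 647.3 in replicate 2. Both VIM-expressing values lay above both VIM-lacking values, and FN1 rose by 0.76 ± 0.06 on the log2 scale (SE, FDR 2.04e-22). It was detected in 99.2% and 99.0% of VIM-expressing and 97.6% and 98.2% of VIM-lacking cells, so the difference lay in the amount per cell and not in the share of cells with a UMI.

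CDH2, or N-cadherin, the adhesion molecule that often replaces E-cadherin in EMT, was a gene of low level that rose by more. It went from 7.47 to 14.1 CPM in replicate 1 and from 8.81 to 19.8 in replicate 2, without overlap (1.06 ± 0.09, FDR 2.79e-18). COL5A1, a fibrillar collagen chain, stood at 3.19 against 6.17 and at 5.64 against 13.9 CPM (1.18 ± 0.11, FDR 9.33e-16), and LOX, the enzyme that cross-links collagen, at 3.48 against 6.41 and 5.24 against 11.2 (1.02 ± 0.12, FDR 3.60e-12). LGALS1, a galectin and the most abundant listed gene, rose by 0.48 ± 0.05, from 2044 to 2852 and from 2386 to 3318 CPM.

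Other risers on this list were TGFBI, SERPINE2, LOXL2, ITGAV, THBS1, COL1A1, COL4A2, NT5E and FSTL1, between 0.24 and 0.86. S100A4, a calcium-binding protein also used as a fibroblast marker, fell by 0.40 ± 0.08, from 24.1 to 18.2 and from 19.1 to 14.4 CPM. CD44, a receptor for hyaluronan, did not pass the test at 154.3 against 161.9 and 154.9 against 157.8 CPM (0.05 ± 0.07, FDR 0.802). Fibroblast collagen COL1A2 and the matrix protein SPARC were at or near 0 in both classes. Without replicate 1 the list had 12 rises, without replicate 2 it had 7, and in depth-matched cells 13, with FSTL1 (FDR 0.0780) and NT5E (FDR 0.249) lost. The fibroblast markers given above moved with this list in replicate 2 (0.216 against 1.17 CPM in sum) and not in replicate 1 (0.179 against 0.173), and their part in the result was not tested.

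Contractile genes, which encode the actin filament machinery of smooth muscle and are also made by motile cells, had the highest median of the lists apart from the fibroblast and endothelial markers, which were near 0 UMIs. Of 14 genes, 7 rose and none fell by edgeR (9 had an unadjusted p under 0.05), with a median of 0.63, and DESeq2 called 6 higher. TAGLN, an actin cross-linker, stood at 155.6 and 127.3 CPM in VIM-lacking and 235.3 and 283.7 in VIM-expressing cells. The classes did not overlap, and TAGLN rose by 0.88 ± 0.07 (FDR 1.88e-21). MYL9, a myosin regulatory light chain, rose by 0.86 ± 0.07 (FDR 2.40e-20), from 66.8 to 104.1 in replicate 1 and from 59.1 to 124.3 CPM in replicate 2.

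MYL7, a light chain best known from the atria of the heart, had the largest called difference of the list, 2.46 ± 0.18 (FDR 3.61e-23), but at low levels of 0.773 against 2.30 and 1.17 against 8.67 CPM. It was detected in 6.8% and 13.6% of VIM-expressing and in 1.7% and 3.6% of VIM-lacking cells. ACTG2, the actin of enteric smooth muscle, rose by 0.95 ± 0.15 (FDR 2.43e-07), from 3.03 to 4.60 and from 2.70 to 6.25 CPM. TPM1 (0.66 ± 0.06), CALD1 (0.60 ± 0.07) and MYLK (0.38 ± 0.10), which bind or activate actin and myosin, completed the rises, MYLK with an FDR of 0.103 in depth-matched cells. ACTA2, the usual marker of myofibroblasts, stood at 1.19 against 1.45 and 2.66 against 2.96 CPM and did not pass (FDR 0.746).

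Many contractile genes carry a CArG box near their start, the element bound by serum response factor. In RefSeq promoters (GRCh38.p14, 250 bases before to 50 after the start of the gene, searched on both strands), the box was found in 5 of 12 contractile genes with an entry (41.7%: MYL7, ACTG2, TPM4, CNN2 and MYLK) and in 1.07% of the promoters of the 11484 tested genes with an entry. TPM4 and CNN2 have the box and did not pass the test. Of the 12 largest rises 8 had an entry and none held a box. TAGLN and MYL9, the contractile genes among these rises, were without an entry. Of the 12 largest falls 8 had an entry and 1 held a box, AQP3. The 150 bases before the start of the 3 genes that rose and have the box are shown to place it, with the box in capitals, each 5′ to 3′ on the strand of its gene.
MYL7, chr7:44141333-44141482, minus strand: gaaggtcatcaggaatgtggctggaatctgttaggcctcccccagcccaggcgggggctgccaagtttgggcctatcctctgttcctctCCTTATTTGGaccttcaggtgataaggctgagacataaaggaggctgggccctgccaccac
ACTG2, chr2:73892858-73893007, plus strand: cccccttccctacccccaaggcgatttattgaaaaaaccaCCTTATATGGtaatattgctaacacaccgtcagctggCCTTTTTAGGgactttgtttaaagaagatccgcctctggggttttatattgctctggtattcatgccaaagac
MYLK, chr3:123620549-123620698, minus strand: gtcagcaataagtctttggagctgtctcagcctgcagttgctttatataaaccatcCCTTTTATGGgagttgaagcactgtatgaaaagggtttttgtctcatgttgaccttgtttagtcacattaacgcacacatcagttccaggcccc
ACTG2 carries 2 boxes, which begin 110 and 73 bases before the start, and MYL7 and MYLK 1 each, at 61 and 94. Motifs of TEAD factors, of AP-1 and of SNAI and ZEB factors were also searched. They were found in 4, 1 and 1 of the 12 contractile genes with an entry. Over the tested genes with an entry, they were found in 11.15%, 3.43% and 19.11%. A match is a stretch of letters and says nothing of whether a factor was bound in these cells.

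Regulators of EMT had few calls. Of 8 transcription factors of the list, 7 were tested and 1 rose, SNAI2, which represses epithelial genes, by 0.40 ± 0.07 (FDR 2.00e-05, not called by DESeq2). Its level went from 60.2 to 65.8 CPM in replicate 1 and from 22.4 to 37.1 in replicate 2, so that the replicates lay further apart than the classes, and without replicate 2 it did not pass. ZEB1, SNAI1 and ZEB2 were under 1.1 CPM and TWIST2 at 0 in both classes, TWIST1 and TCF4 between 2.5 and 6.3 CPM, and PRRX1 was not tested because of its low counts. At these levels a difference in ZEB1 (1.25 ± 0.71, FDR 0.382) was not detectable.

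Of 15 genes of the TGF-beta pathway, 4 rose and none fell by edgeR (5 had an unadjusted p under 0.05), with a median of 0.17, and DESeq2 also called 4 higher. The risers were a ligand, TGFB2 (0.78 ± 0.15), the activin subunit INHBA (0.56 ± 0.07), the latent TGF-beta binding protein LTBP2 (0.46 ± 0.09) and the target PMEPA1 (0.25 ± 0.06). INHBA went from 55.3 to 68.9 and from 39.3 to 68.0 CPM, with no overlap but only a narrow gap between classes. The receptors TGFBR1 and TGFBR2 and the ligand TGFB1 did not pass, without replicate 2 none of the list did, and TGFB2 had an FDR of 0.0502 in depth-matched cells. BAMBI, a pseudoreceptor that dampens TGF-beta signals, and FST, or follistatin, which binds activin, were among the 12 largest rises. FST rose by 0.84 ± 0.07 (FDR 5.61e-19), from 34.4 to 64.1 in replicate 1 and from 13.2 to 22.4 CPM in replicate 2, where even VIM-expressing cells were below the VIM-lacking cells of replicate 1. BAMBI rose by 0.77 ± 0.08 (FDR 1.35e-14), from 7.86 to 13.2 and from 27.4 to 47.1 CPM.

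Of 9 targets of YAP and TEAD, the effectors of the Hippo pathway, 3 rose (1 by DESeq2), with a median of 0.17. AXL, a receptor tyrosine kinase that the study followed, went from 77.3 to 113.7 CPM in replicate 1 and from 79.2 to 110.7 in replicate 2. The classes were well apart and both replicates gave nearly the same levels, and AXL rose by 0.52 ± 0.06 (FDR 2.13e-11). In cells thinned to 15000 UMIs, AXL was detected in 70.9% and 69.0% of VIM-expressing and in 57.7% and 53.7% of VIM-lacking cells, while the leukocyte gene PTPRC was detected in none of either class. ANKRD1 rose by 0.56 ± 0.11, with 19.0 against 20.6 CPM in replicate 1 and 3.61 against 9.47 in replicate 2, and CRIM1 by 0.28 ± 0.08, while CYR61 and CTGF, the classical targets, did not pass (FDR 0.109 and 0.076). In depth-matched cells ANKRD1 had an FDR of 0.0548 and CTGF passed (0.42).

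Other large rises lay outside the lists above. TUBA1A, an alpha-tubulin of neurons, had the largest among genes of 20 CPM or more in a class at 1.90 ± 0.10 (FDR 5.94e-34), with 1.84 against 3.93 CPM in replicate 1 and 10.3 against 43.2 in replicate 2. The replicates lay far apart, the rise was larger in replicate 2, and reads of TUBA1A may be shared with its near-identical copies. BDNF, a neurotrophin, rose by 1.24 ± 0.10 (FDR 8.14e-21), from 15.04 to 28.0 and from 3.31 to 12.6 CPM, and MAP1B, a microtubule protein of axons, by 0.79 ± 0.07 (FDR 5.17e-17), from 20.1 to 31.4 and from 23.7 to 44.5. For MAP1B the classes did not overlap, and for BDNF they did.

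The lymphotoxin chain LTB rose by 1.08 ± 0.10 (FDR 3.28e-16), from 35.7 to 51.2 and from 5.59 to 24.1 CPM. In replicate 2, 37.4% of the 847 LTB UMIs of VIM-expressing cells came from 1 cell. Of 6 proteins that bind insulin-like growth factors, 2 rose (1 by DESeq2): IGFBP5 by 1.31 ± 0.11, from 1.90 to 4.78 and from 14.8 to 36.5 CPM, and IGFBP7 by 0.52 ± 0.06, from 83.8 to 114.3 and from 207.1 to 309.0. A single cell gave 28 of the 79 IGFBP5 UMIs of VIM-expressing cells in replicate 1. Another gave 105 of the 635 IGFBP5 UMIs of VIM-lacking cells in replicate 2.

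The 12 largest falls included genes known from surface and glandular epithelium. S100P, a calcium-binding protein, had the largest fall among genes of 20 CPM or more in a class, by 0.93 ± 0.06 on the log2 scale (FDR 1.78e-25), from 119.4 to 61.7 CPM in replicate 1 and from 44.6 to 23.7 in replicate 2. The classes overlapped, since both values of replicate 1 were above those of replicate 2. AQP3, the water and glycerol channel of keratinocytes, fell by 0.87 ± 0.07 (FDR 3.86e-20), from 171.6 to 108.0 and from 126.3 to 60.5 CPM, and GPX2, the glutathione peroxidase of epithelia, fell by 0.88 ± 0.07 (FDR 2.50e-20), from 79.8 to 47.0 and from 111.2 to 56.3. For AQP3 and GPX2 both VIM-expressing values lay under both VIM-lacking values.

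FXYD3, a regulator of the sodium pump and the most abundant of these genes, stood at 404.5 and 430.3 CPM in VIM-lacking and at 265.0 and 246.3 in VIM-expressing cells. Here the replicates were close and the classes apart, and FXYD3 fell by 0.71 ± 0.06 (FDR 2.16e-19). AGR2, a protein disulphide isomerase of secretory cells, fell by 0.81 ± 0.07, and SCNN1A, a subunit of the epithelial sodium channel, by 0.58 ± 0.08. CYP1B1, a cytochrome P450, fell by 0.82 ± 0.06, from 114.2 to 62.0 and from 61.5 to 36.2 CPM, and AKR1C2, an aldo-keto reductase with near-identical relatives, by 0.86 ± 0.07, from 35.7 to 21.1 and from 59.4 to 31.4. ADIRF, CAPS and BICDL2 fell by 0.62 to 0.71.

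Among 22 genes of squamous differentiation, 18 were tested, of which 5 fell and 1 rose, with a median of -0.16. Besides AQP3 these were KRT13, a keratin of mucosal epithelium (fell by 0.86 ± 0.10, 23.0 against 12.1 and 17.5 against 10.1 CPM), the protease KLK6 (fell by 0.55 ± 0.07, 415.5 against 301.6 and 601.8 against 387.4), and S100A9 and S100A8, which form calprotectin. S100A9 fell by 0.41 ± 0.08, from 198.8 to 163.1 and from 217.2 to 150.9 CPM, while S100A8 was under 4 CPM throughout. In depth-matched cells S100A9 had an FDR of 0.0571, and S100A8 stood at -0.44 instead of -2.25 (FDR 0.663). By DESeq2, 2 of the 18 tested genes were called lower and none higher. The genes of the cornified envelope were hardly present: IVL, SPRR1B and SPRR3 were under 8 CPM and did not pass, SPRR1A, SPRR2A, SPRR2D and S100A7 were not tested, and TGM1, which rose, stood between 0.5 and 1.3 CPM and had an FDR of 0.0735 in depth-matched cells.

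**Figure D3:**
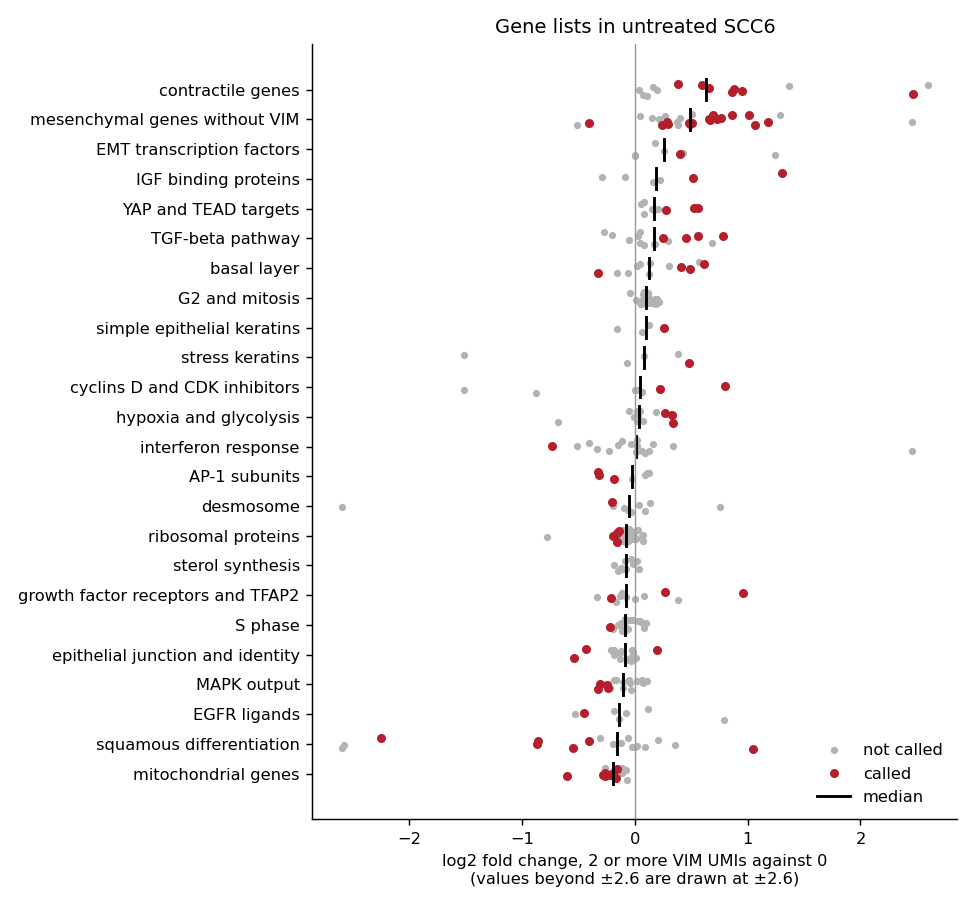
Log2 fold change (x axis) of VIM-expressing against VIM-lacking SCC6 PBS cells for the tested members of each gene list. Each point is a gene, red where FDR was 0.05 or less, and the tick marks the median of the list, such as 0.63 for contractile genes, 0.49 for mesenchymal genes, -0.16 for squamous differentiation and -0.19 for mitochondrial genes.

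Epithelial junction genes changed little. Of 16 genes, 1 rose, CDH3 (P-cadherin, 0.20 ± 0.06, FDR 0.0464), and 2 fell, the epithelial transcription factors ELF3 (fell by 0.44 ± 0.07, 239.8 against 194.7 and 172.2 against 115.8 CPM) and OVOL1 (fell by 0.54 ± 0.14), with a median of -0.09. CDH1, or E-cadherin, stood at 38.7 against 36.9 and 25.2 against 24.4 CPM (-0.06 ± 0.07, FDR 0.769), and EPCAM at 163.2 against 166.2 and 291.3 against 275.3 (FDR 0.895). The values of both genes were closer between the classes than between the replicates, and the intervals implied by these SE leave out a fall the size of the rise in CDH2. Of 10 desmosome genes 1 changed, PERP, which fell by 0.21 ± 0.06. In depth-matched cells CDH3, OVOL1 and PERP did not pass (FDR 0.225, 0.104 and 0.411). None of the junction and desmosome genes was called by DESeq2.

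Keratins did not move in 1 direction. KRT17, a keratin induced by stress and injury, rose by 0.48 ± 0.06 (FDR 2.31e-11), from 765.0 to 950.9 CPM in replicate 1 and from 379.9 to 597.4 in replicate 2, and was the only riser of 5 stress keratins. Its call was lost without replicate 2 and with only the cells of 2 or 3 VIM UMIs. Without TMM scaling, cells with 0, 2 and 3 VIM UMIs had 708, 677 and 643 CPM of KRT17 in replicate 1. In replicate 2 they had 352, 400 and 446. KRT7 rose by 0.26 ± 0.06, from 394.4 to 442.1 and from 273.8 to 350.0 CPM, while KRT8, KRT18 and KRT19, the main keratins of these cells, stood between 2102 and 3885 CPM and did not pass. Of 12 genes of the basal layer, 3 rose, among them the laminin chain LAMA3 (0.40 ± 0.09, 13.1 against 16.2 and 11.8 against 16.5 CPM) and the hemidesmosomal collagen COL17A1 (0.49 ± 0.10, 9.92 against 12.3 and 7.80 against 12.2 CPM), which anchor cells to the basement membrane. For LAMA3 and COL17A1 both VIM-expressing values lay above both VIM-lacking values. KRT15 fell by 0.33 ± 0.09, and TP63, the transcription factor of basal cells, did not pass (FDR 0.473). In depth-matched cells KRT7 came to 0.16 (FDR 0.263) and KRT15 to -0.28 (FDR 0.391), and both calls were lost. Among the basal layer genes DESeq2 called 2 higher and none lower.

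EGFR, the target of cetuximab, stood at 92.2 CPM in VIM-lacking and 89.6 in VIM-expressing cells of replicate 1, and at 80.5 and 83.2 in replicate 2. The direction differed between the replicates, and the fitted difference was 0.0046 ± 0.063 on the log2 scale (FDR 0.996). TFAP2A, the transcription factor whose growth factor receptor targets the study examined, stood at 47.4 against 46.9 and 55.6 against 48.3 CPM and did not pass (-0.12 ± 0.06, FDR 0.352). Among 11 growth factor receptors and TFAP2 genes, IGF1R (0.27 ± 0.08) and FGFR2 (0.96 ± 0.23, at 1.0 to 2.3 CPM) rose and ERRFI1, a feedback inhibitor of EGFR, fell by 0.22 ± 0.06. ERBB2, ERBB3 and MET did not pass. In depth-matched cells ERRFI1 came to -0.0772 (FDR 0.642) and IGF1R to 0.28 (FDR 0.167), and both calls were lost. With DESeq2, 1 of the 11 genes was called higher and none lower.

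Of 7 EGFR ligands, EREG, or epiregulin, fell by 0.45 ± 0.06 (FDR 6.21e-10), from 212.3 to 145.0 CPM in replicate 1 and from 107.3 to 84.3 in replicate 2. Its call was lost without replicate 1. The level of AREG, amphiregulin, was 568.8 against 469.9 and 122.6 against 122.1 CPM (FDR 0.358), far lower in replicate 2 than in replicate 1 in both classes. Of 17 output genes of the MAPK cascade 4 fell, with a median of -0.11: PHLDA1 by 0.33 ± 0.06, the transcription factors ETV4 by 0.31 ± 0.08 and MYC by 0.24 ± 0.06, and the phosphatase DUSP4 by 0.25 ± 0.06. PHLDA1 went from 730.1 to 524.3 in replicate 1 and from 170.6 to 151.0 CPM in replicate 2, and none of the 4 passed without replicate 1. Of 7 AP-1 subunits, FOSB, FOS and JUNB fell by 0.19 to 0.33, FOS from 93.8 to 63.6 and from 214.8 to 198.0 CPM, and these 3 calls were also lost without replicate 1. In depth-matched cells ETV4 (FDR 0.0521), MYC (FDR 0.134), FOS (FDR 0.143) and JUNB (-0.0898, FDR 0.625) did not pass, and JUN, an AP-1 subunit not called above, was higher (0.25, FDR 0.0233). DESeq2 called 1 EGFR ligand and 1 MAPK output gene lower, and none of the AP-1 subunits.

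Few proliferation genes were called, and those of G2 and mitosis differed in direction between the replicates. Of 20 S phase genes 1 fell, HELLS, by 0.22 ± 0.07, and of 20 genes of G2 and mitosis edgeR called none (6 had an unadjusted p under 0.05, and DESeq2 called none), with a median of 0.10. The most abundant, UBE2C, stood at 556.4 against 693.9 CPM in replicate 1 and 919.0 against 879.1 in replicate 2, so that the direction differed. Summed, the 20 genes of G2 and mitosis stood at 2175 against 2718 CPM in replicate 1 and 3972 against 3811 in replicate 2. CDKN1A, an inhibitor of cyclin-dependent kinases, rose by 0.22 ± 0.06, from 41.4 to 51.1 and from 59.8 to 66.5 CPM, as did CDKN1C at 1.5 to 3.7 CPM, and they were the called genes among 8 cyclins D and kinase inhibitors. HELLS and CDKN1A did not pass in depth-matched cells (FDR 0.156 and 0.111). No S phase gene, cyclin D or kinase inhibitor of these lists was called by DESeq2.

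Of 12 genes of hypoxia and glycolysis 3 rose, ADM, BNIP3 and NDRG1, by 0.27 to 0.34 (NDRG1 with an FDR of 0.105 in depth-matched cells), while GAPDH was nearly equal at 5464 against 5649 and 5527 against 5499 CPM. Of 17 interferon response genes 1 fell (OAS1), and of 10 genes of sterol synthesis edgeR called none (3 had an unadjusted p under 0.05, and DESeq2 called none). The genes of hypoxia and glycolysis and of the interferon response had no call by DESeq2 either. Of 81 ribosomal protein genes 4 fell (RPL21, RPL41, RPS12 and RPS24), with a median of -0.08, and none of these 4 passed in depth-matched cells (edgeR FDR 0.195 to 0.316). Of the 13 protein-coding genes of the mitochondrial genome 8 fell, with a median of -0.19, beside the lower mitochondrial share of these cells given above, and 4 fell in depth-matched cells. The part of this share in the other results was not tested.

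Levels changed with the amount of VIM as well as with its presence. On the scale of CPM without TMM scaling, FN1 in replicate 1 went from 369 in cells with 0 VIM UMIs through 454 with 1, 504 with 2, 534 with 3, 592 with 4 to 7 and 778 with 8 to 15, to 780 with 16 or more. In replicate 2 it went from 322 through 460, 501, 465, 654 and 573 to 962. CDH2 went from 6.92 to 46.1 CPM between the cells with 0 and with 16 or more VIM UMIs in replicate 1 and from 8.15 to 36.2 in replicate 2, and TAGLN from 144.1 to 444.7 and from 117.8 to 520.9. The steps were not all in order, but the cells richest in VIM were the highest or nearly so for each of these genes.

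AQP3 ran the other way, from 158.9 to 76.9 CPM in replicate 1 and from 116.9 to 29.5 in replicate 2, and GPX2 from 73.9 to 16.8 and from 102.9 to 36.8. EGFR moved within 81.1 to 91.2 CPM in replicate 1 and 73.8 to 87.4 in replicate 2, with no order. Of the 12 largest rises, the cells with 16 or more VIM UMIs stood above those with 2 for 9 genes in replicate 1, which had only 16 such cells, and for 12 in replicate 2, which had 115. For the 12 largest falls they stood below in 11 and 12. Cells of both bins helped to choose these genes, so the counts describe them and test nothing. At the threshold itself, between cells with 2 and with 1 VIM UMI, AQP3 stood at 115.8 against 123.6 and 86.6 against 98.8 CPM. FN1 stood at 504 against 454 and 501 against 460, and S100P at 64.7 against 90.8 and 32.1 against 38.1. Other genes did not keep the class direction at this step. BDNF stood at 15.8 against 20.03 and 4.29 against 5.89 CPM, and MAP1B was also lower with 2 UMIs in both replicates. TAGLN stood at 177.6 against 186.4 CPM in replicate 1 and 156.3 against 136.5 in replicate 2. CDH2 stood at 7.81 against 9.01 and 13.4 against 11.7. Median depth also rose with VIM, from 31419 to 41756 UMIs per cell in replicate 1 and from 37123 to 47356 in replicate 2 between the outer bins, and its part in the order of the levels was not tested.

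**Figure D4:**
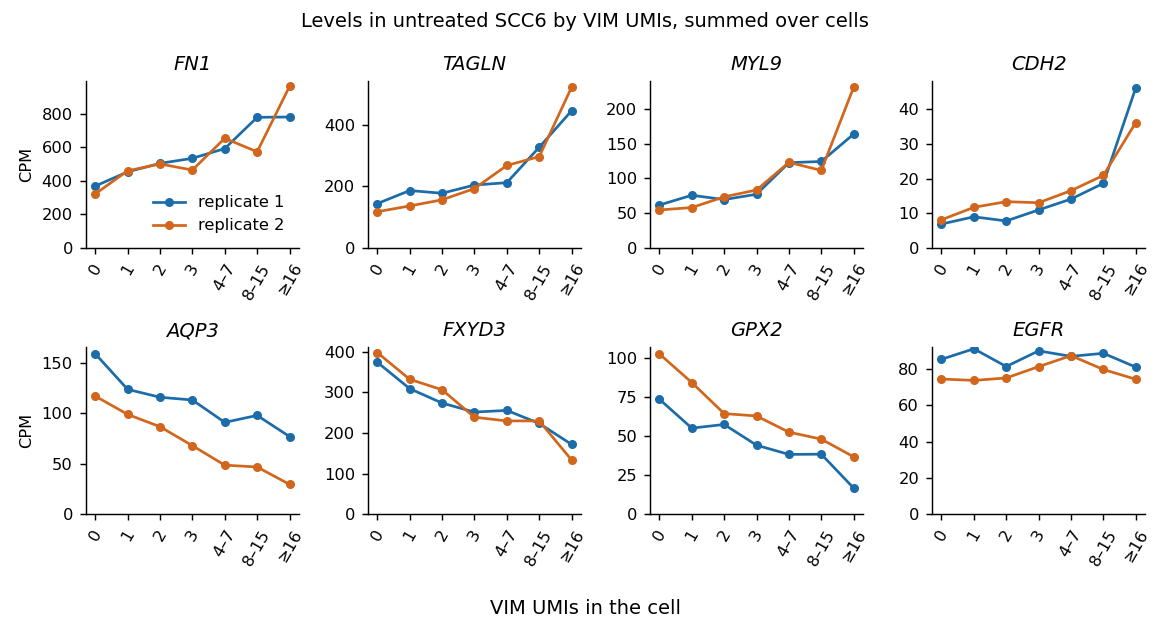
CPM without TMM scaling (y axis) of 8 genes in SCC6 PBS cells binned by VIM UMIs per cell (x axis), 1 line for each replicate. FN1, TAGLN, MYL9 and CDH2 are highest in the bin of 16 or more UMIs in both replicates, AQP3, FXYD3 and GPX2 lowest, and EGFR shows no order.

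With VIM left out, VIM-expressing cells also lay nearer to each other than their share in the sample. Among the 30 nearest cells of the same sample, in 30 principal components of thinned counts, 18.7% had 2 or more VIM UMIs around a VIM-expressing cell of replicate 1 and 12.1% around a VIM-lacking cell, with 14.9% in the sample as a whole. In replicate 2 these values were 41.6%, 24.7% and 33.4%. Around the cells with 16 or more VIM UMIs they were 26.9% and 59.2%. Most neighbours of a VIM-expressing cell were thus outside the class in both replicates, and no clustering was run.

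Most SCC6 cells given cetuximab expressed VIM: 2356 of replicate 1 (90.9%) and 1574 of replicate 2 (96.0%) had 2 or more UMIs, and 113 and 22 had none. These samples did not enter the rule, and the same contrast within them called 725 genes, 4.39% of those tested (441 and 1090 without cetuximab replicate 1 or 2, 1190 without PBS replicate 2, 1307 without SCC25 PBS replicate 2, 519 by DESeq2, 321 in depth-matched cells and none without the block). Of the 564 genes higher in untreated VIM-expressing cells, 170 were also higher in treated ones, 30.1% of the former and 34.1% of the 498 of the latter, and 4 were lower. Of the 445 lower genes 68 were also lower, 15.3% of these and 29.96% of the 227, and 5 were higher. In depth-matched cells, 81 of 345 higher genes (23.5%) and 19 of 205 lower genes (9.27%) were called the same way in treated cells, 45.3% of the 179 and 13.4% of the 142 called there, and none the other way. FN1 rose by 0.89 ± 0.06, TAGLN by 0.77 ± 0.07 and TUBA1A by 2.12 ± 0.13 in the treated cells.

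Set side by side, VIM-expressing cells without treatment lay between untreated VIM-lacking cells and treated cells for several genes. FN1 stood at 398.6 and 348.3 CPM in untreated VIM-lacking, 614.5 and 647.3 in untreated VIM-expressing, 1763 and 1352 in treated VIM-lacking and 3246 and 2533 in treated VIM-expressing cells. AQP3 stood at 171.6 and 126.3, 108.0 and 60.5, 15.9 and 11.6, and 10.4 and 9.65 CPM in the same order. Even the treated cells with no VIM UMI were thus beyond the untreated VIM-expressing cells for both genes. Of the 12 largest rises, 6 had both treated VIM-lacking values above both untreated VIM-expressing values. Of the 12 largest falls, 6 had both below. The same count over all genes tested is not given, so these counts describe the named genes only.

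FST was an exception among the rises. It stood at 34.4 and 13.2 CPM in untreated VIM-lacking, 64.1 and 22.4 in untreated VIM-expressing, 8.72 and 14.0 in treated VIM-lacking and 9.67 and 10.4 in treated VIM-expressing cells, so that the treated VIM-expressing cells were below both untreated classes. The contrast of the classes differed between untreated and treated cells for 192 genes, 1.16% of those tested. On the log2 scale and as the untreated minus the treated contrast, INHBA and ACTG2 had the larger rise with cetuximab (-0.91, FDR 3.25e-06, and -1.24, FDR 0.000972). The contrasts of FXYD3 and KLK6 were lower without it than with it (-0.50, FDR 0.000408, and -0.59, FDR 2.78e-05). The contrast of AXL, 0.52 ± 0.06 without and 0.17 ± 0.09 with cetuximab, was not shown to differ (FDR 0.0948). With 22 VIM-lacking cells in treated replicate 2, these differences rest on few cells, and in depth-matched cells INHBA passed (FDR 0.0138) but ACTG2, FXYD3 and KLK6 did not (FDR 0.723, 0.232 and 0.732).

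**Figure D5:**
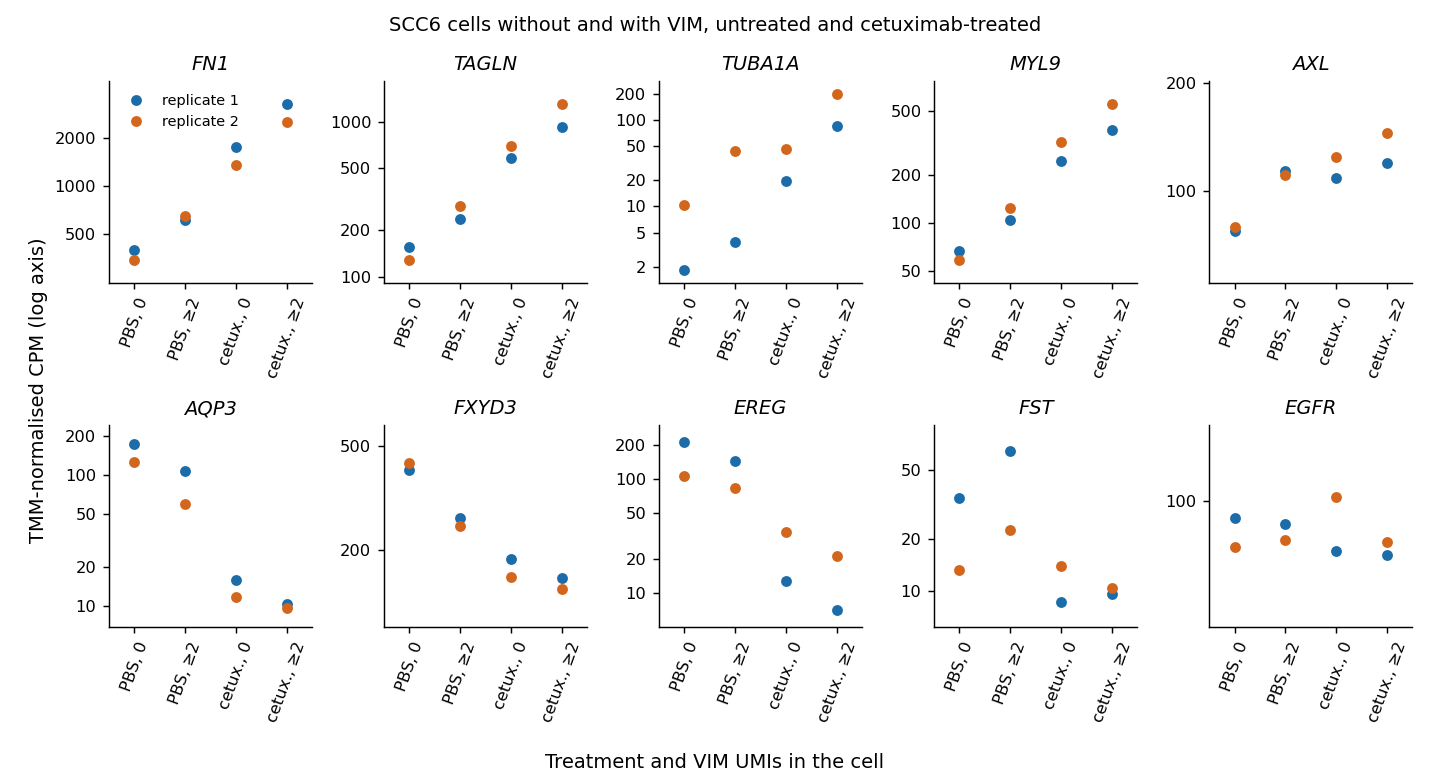
CPM after TMM scaling (y axis, log scale) of 10 genes in VIM-lacking and VIM-expressing SCC6 cells given PBS or cetuximab, 1 point for each replicate. FN1 climbs from 348.3 in untreated VIM-lacking to 3246 in treated VIM-expressing cells and AQP3 descends from 171.6 to 9.65, while EGFR stays between 77.7 and 101.5.

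SCC25, in which 77.6% and 53.0% of untreated cells had 2 or more VIM UMIs, showed a wider contrast, with 4381 genes called, 26.6% of those tested. Its classes also lay further apart in depth, at median UMIs per cell of 34358 against 25840.5 in replicate 1 and 48834.5 against 32150 in replicate 2. Depth-matched cells gave 1129 genes, of which 39.4% were higher instead of 57.9%, DESeq2 gave 1852, leaving out SCC25 PBS replicate 2 gave 1244, and the fit without the block gave none. Of the genes higher in VIM-expressing SCC6 cells, 190 of 564 (33.7%) were also higher in SCC25, or 7.49% of the 2537 higher there, and 64 were lower. Of the 445 lower genes 168 (37.8%) were also lower, 9.11% of the 1844 lower there, and 72 were higher. In depth-matched cells 74 of 345 (21.4%) and 58 of 205 (28.3%) were called the same way, 16.6% of the 445 and 8.48% of the 684 called in SCC25, and 20 and 4 the other way. The contrast differed between the lines for 2715 genes, or 16.5% (538 in depth-matched cells). SCC25 had 254 and 753 VIM-lacking and 1697 and 1326 VIM-expressing cells.

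FN1 rose less in SCC6 than in SCC25 (0.76 against 1.99, difference -1.23 ± 0.12, FDR 9.36e-16), as did FST (0.84 against 1.84, FDR 9.85e-15), AXL (0.52 against 1.35, FDR 1.43e-11) and TAGLN (0.88 against 1.41, FDR 3.89e-05). COL5A1 (1.18 against 0.08, FDR 1.62e-10) and LOX (1.02 against 0.02, FDR 6.30e-07) rose in SCC6 and did not pass in SCC25. CDH2 rose in both, by 1.06 ± 0.09 and 1.07 ± 0.08, with a difference of -0.01 ± 0.13. KRT17 rose in SCC6 and fell in SCC25 (0.48 against -0.23, FDR 3.08e-12), and EGFR, which did not pass in SCC6, was lower in VIM-expressing cells of SCC25 (difference 0.41 ± 0.09, FDR 0.000238). In depth-matched cells these differences passed except that of TAGLN (FDR 0.124), and COL5A1 then rose in SCC25 too (0.31, FDR 0.0331).

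Counts by list also differed between the lines, and several changed once cells were matched in depth. S phase genes, of which 1 of 20 was called and lower in SCC6, were higher for 20 of 20 in SCC25, and for none of 20 in SCC25 once cells were matched in depth. Of 17 interferon response genes 15 were lower in SCC25 (13 in depth-matched cells) against 1 in SCC6. Of 18 squamous differentiation genes 13 fell in SCC25 (11 of 15 tested in depth-matched cells) and 5 in SCC6 (3 of 15), and of 16 epithelial junction genes 10 fell in SCC25 (7 in depth-matched cells) and 2 in SCC6 (1). Contractile genes rose in both, 11 of 14 in SCC25 (10 of 13 in depth-matched cells) and 7 of 14 in SCC6 (6 of 13). Over all 16498 genes tested, 2537 were higher and 1844 lower in SCC25, against 564 and 445 in SCC6. In depth-matched cells, 445 were higher and 684 lower of 14542 in SCC25, against 345 and 205 in SCC6. The counts by list were not compared by a test.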

How the data were processed

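The authors sequenced 10x Chromium 3′ libraries, and the submitters' processing notes name Cell Ranger and GRCh38 (versions not given in the sources used here). According to the study's methods, cells were pre-processed with Monocle. The deposited tables, 1 per line, hold raw UMI counts by gene symbol and cell, and no column was left unused. The SCC6 PBS libraries held 100360353 and 102796996 UMIs, the SCC6 cetuximab libraries 76008513 and 89989753 and the SCC25 PBS libraries 80948957 and 112170073. Symbols on several lines (24) were added up. No cell was removed beyond the depth limit of 15000 UMIs, and no doublet caller was run.

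Counts were summed per sample and class for SCC6 PBS, SCC6 cetuximab and SCC25 PBS (12 sums) and tested with edgeR 4.0.16 (R 4.3.3): filterByExpr, TMM, sample as block and 3 residual degrees of freedom. The sample pairs the classes because both come from 1 library. The 3 groups shared the estimate of spread, which was also moderated over genes with 124.4 prior degrees of freedom. A gene could pass the filter through any group. Members and gene lists were chosen with earlier results of these data known. Genes were named by rule: the 12 largest called rises and falls at 20 CPM or more in a class and in the same direction in both samples; up to 4 called members per list at 5 CPM or more (otherwise the 2 most abundant); TFAP2A, EGFR and AXL; and the 3 largest differences between contrasts. Other genes named from the lists were chosen after their values were seen. The 21 alternatives covered normalisation, DESeq2 1.42.0, filters, depth, thinning, VIM thresholds, single libraries and the block, and 3 of them were added after seeing the data. Some genes that the rule names are not reported here.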

Additional observations from a re-analysis of the deposited data

Results flagged for a closer look

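The contrast of VIM-expressing and VIM-lacking cells differed between untreated SCC6 and untreated SCC25 for 2715 genes, by the test of the difference in the joint edgeR fit. The 3 genes of largest difference were CCDC3 (-5.06 on the log2 scale), GJA1 (4.52) and COPZ2 (3.05), which are well expressed in SCC25 (at least 11.9 CPM in each class and sample) and close to 0 in SCC6. In SCC6, CCDC3 had 4 and 6 UMIs in VIM-lacking and 0 in VIM-expressing cells, GJA1 had 0 and 1 against 1 and 7, 5 of the latter in 1 cell, and COPZ2 had 4 and 3 against 6 and 23. The fitted differences of CCDC3 and GJA1 depend on these few counts and are not a measure of size.

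Between untreated and treated SCC6, the contrast differed for 192 genes. The largest differences were AREG (2.49), AKR1C1 (2.07) and DDIT3 (1.61). AREG, an EGFR ligand, stood at 15.9 and 192.2 CPM in treated VIM-lacking and 6.38 and 20.7 in treated VIM-expressing cells, and DDIT3, a stress transcription factor, at 53.6 and 68.2 against 18.0 and 24.3. AKR1C1, an aldo-keto reductase with near-identical relatives, stood at 15.6 and 45.7 against 3.84 and 5.35 CPM. These levels rest on 113 and 22 treated cells without a VIM UMI.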

How the results depend on the processing

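The sample is the block of the fit because both classes come from the same library. With no replicate block, edgeR called 0 genes in untreated SCC6, in the difference from SCC25 and in the difference from treated SCC6 (263, 261 and 146 at an unadjusted p under 0.05). The other values are given for these 3 results in that order, against 1009, 2715 and 192. DESeq2 called 214, 844 and 65 (151 higher and 63 lower in untreated SCC6), depth-matched cells gave 550, 538 and 26, cells thinned to 15000 UMIs 501, 1552 and 92, and cells with only 2 or 3 VIM UMIs 175, 323 and 30. A class of 1 or more VIM UMIs gave 620 genes in untreated SCC6. No low-count filter gave 2680 for the difference from treated SCC6, where it moved the median of all genes to -0.43, and 1501 in untreated SCC6, with 21.8% higher against 55.9%. Leaving out 1 library gave 180 to 1242, 922 to 2609 and 94 to 918. In untreated SCC6 the lowest were without PBS replicate 2 (180) and replicate 1 (393). For SCC25 they were without SCC25 replicate 2 (922), PBS replicate 2 (993) and PBS replicate 1 (1578), and for treated SCC6, PBS replicate 1 gave 94, PBS replicate 2 gave 513, cetuximab replicate 2 gave 860 and SCC25 replicate 2 gave 918. Classes cut on thinned VIM counts gave 37.96% higher calls, and DESeq2 70.6%.

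The 22 of the largest changes that are drawn kept their call under every alternative except the fit without block, DESeq2 (IGFBP5, LTB, KRT13, AGR2 and BICDL2 lost), thinned classes (KRT13) and 2 or 3 VIM UMIs (SCNN1A). Signs reversed for genes near 0. UBE2C came to -0.0899 in depth-matched cells and -0.10 with thinned classes, and FDFT1 to 0.0199 in thinned cells. Leaving out 1 library gave -0.0703 (PBS replicate 1) to 0.26 for UBE2C, -0.0582 (PBS replicate 1) to 0.40 for CDC20, -0.10 (PBS replicate 2) to 0.0416 for EGFR and -0.37 (PBS replicate 2) to 0.67 for DDIT3. EGFR came to -0.10 with no filter, to -0.03 without either cetuximab library or SCC25 replicate 2, to -0.00173 without SCC25 replicate 1, -0.00556 in thinned cells, -0.0632 with thinned classes, -0.00329 without the deepest 5% of cells, -0.00341 with 2 or 3 VIM UMIs and -0.00168 without shared barcodes. DDIT3 came to -0.21 with no block, -0.0680 in thinned cells, -0.0376 without cells of 16 or more VIM UMIs and -0.15 with 2 or 3. GJA1 came to -1.55 with 2 or 3. The cause of these changes was not tested. With 2 libraries, and with VIM at a median of 3 to 4 UMIs, cells near the threshold can fall in either class by counting alone.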

Other observations

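The 2 untreated SCC6 libraries differed from each other in the level of some genes in both classes. DDIT3 stood at 245.9 CPM in VIM-lacking and 198.3 in VIM-expressing cells of replicate 1 and at 19.1 and 30.5 in replicate 2. HBEGF, an EGFR ligand, stood at 136.7 and 109.1 CPM in replicate 1 and at 21.7 and 22.4 in replicate 2. CLDN4, a tight junction protein, ran the other way, with 177.2 and 180.6 in replicate 1 and 614.3 and 468.9 in replicate 2. The replicate with more VIM-expressing cells thus had the lower levels of DDIT3 and HBEGF and the higher level of CLDN4, which was not tested with 1 library on either side. HBEGF and CLDN4 were chosen after their values were seen.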
